A study of Mus musculus with 14 samples.

Results

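Sphingosine-1-phosphate (S1P) is a lipid messenger made inside cells from the sphingolipid backbone sphingosine and read on the cell surface by a small family of receptors. The genes described here are 8 of the 33939 in the deposited table, taken by symbol from a list of 4 S1P receptors (*S1pr1*, *S1pr2*, *S1pr3* and *S1pr4*) and 4 enzymes that make or remove S1P (*Sphk1*, *Sphk2*, *Sgpl1* and *Sgpp1*). All 8 were present and passed the filter on low values in each comparison.

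RNA was sequenced from cells carrying the surface protein CD11b, that is microglia with any infiltrating myeloid cells, which were collected with magnetic beads from each side of the brain 3 days after a controlled cortical impact, a model of traumatic brain injury (TBI). The contralateral (CL) hemisphere was the side without the lesion and the ipsilateral (IL) hemisphere was the side that was hit. Mice were C57BL/6 males of 8 to 12 weeks, and both genotypes were *Cx3cr1-CreER*+/- and had received tamoxifen. The cKO mice also carried a pair of floxed alleles, so that the recombinase, driven by a promoter active in microglia and in some other myeloid cells, removed the targeted gene there. The libraries numbered 4 for Ctrl CL, 4 for Ctrl IL, 3 for cKO CL and 3 for cKO IL. They came from 8 mice, of which 6 gave both hemispheres (Ctrl mice 3541, 3545, 3546 and 3551 and cKO mice 3592 and 791), while cKO mouse 784 gave IL alone and cKO mouse 788 gave CL alone. Both genotypes had been injured and dosed with tamoxifen, so the comparisons of cKO and Ctrl hold these constant.

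S1P is made when sphingosine kinases phosphorylate sphingosine. It can be turned back into sphingosine by phosphatases or broken down irreversibly by S1P lyase, and transporters carry it out of the cell. Outside, it acts on G protein-coupled receptors that steer cell migration, barrier function of vessels and inflammatory signalling. In the brain, S1P receptors are found on microglia, astrocytes, endothelial cells and oligodendrocytes, and receptor modulators of this class are used to treat multiple sclerosis.

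Levels are given as CPM, reads scaled to the same total in every library, the unit of the deposited values. The libraries held 12.2 to 41.6 M reads in genes, with a median of 34.2 M, and Ctrl IL mouse 3546 was the shallowest. All 10 microglial markers examined were above 0 in every library, and their summed level ranged from 36656 to 40947 CPM in Ctrl CL, 22148 to 26855 in Ctrl IL, 34001 to 36440 in cKO CL and 21113 to 22906 in cKO IL. The sums of the genotypes thus did not overlap in CL, although 5 of 10 markers were positive there, with a median log2 fold change of 0.04. Of the 10, limma called *Fcrls* alone between genotypes, lower in cKO on both sides, at 2853 to 3904 CPM in Ctrl CL, 377 to 441 in cKO CL, 3091 to 3631 in Ctrl IL and 358 to 488 in cKO IL. Between hemispheres, 4 of 10 were called lower in IL in Ctrl (*Cx3cr1*, *P2ry12*, *Siglech* and *Tmem119*), with a median of -0.69, and these 4 with *Sall1* in cKO, with a median of -0.63. *Aif1*, which encodes the microglial protein Iba1, was at 71.2 CPM in Ctrl IL mouse 3546, the lowest of all libraries. Differences were tested with limma on log2(CPM + 1), and a gene was called when the adjusted p was at or under 0.05 and the fold change was at least 1.2. In such bulk samples, fewer cells of a type and less RNA per cell cannot be told apart.

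The receptor gene *S1pr1* and the kinase gene *Sphk1* carried the main differences. In the CL hemispheres, *S1pr1* was 2.83-fold lower in cKO than in Ctrl cells, the only one of the 8 genes called there, against 0.905% of all genes tested and 0.362% called lower. In the IL hemispheres, 0 of the 8 genes were called between cKO and Ctrl, against 0.664% of all genes. Between the hemispheres of Ctrl mice, *Sphk1* alone was called, against 7.52% of all genes and 4.18% called higher, and its mean CPM was 12.1-fold higher in IL. Between the hemispheres of cKO mice, *S1pr1*, *Sphk1* and *Sgpl1* were called, each higher in IL, against 23.1% of all genes and 12.3% called higher. With the mouse as a block, the hemispheres are compared within each animal. In Ctrl 3 of the 8 genes were then called (*Sphk1*, *S1pr2* and *Sgpl1*), against 20.5% of all genes. In cKO 4 were called (*S1pr1*, *S1pr2*, *Sphk1* and *Sgpl1*), against 14.7% of all genes. The cKO difference under this block, here and below, rests on the 2 mice with both hemispheres (3592 and 791). A joint fit took all libraries together and gave each mouse a random effect. It called 1 of the 8 genes between genotypes in IL (*S1pr1*), against 1.02% of all genes. Between hemispheres it called 4 in Ctrl (*S1pr1*, *S1pr2*, *Sphk1* and *Sgpl1*), against 23.9% of all genes, and these 4 with *Sgpp1* in cKO, against 17.7%.

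Markers of infiltrating monocytes, which also carry CD11b, were examined beside these calls. In Ctrl 2 of 7 were called higher in IL (*Ccr2* and *Vcan*), with 5 of 7 positive and a median log2 fold change of 0.73. In cKO 3 of 7 were called higher (*Plac8*, *S100a4* and *Vcan*), with 6 of 7 positive and a median of 1.23. With the mouse as a block, the calls numbered 2 of 7 in Ctrl and 5 of 7 in cKO, where *Ccr2* and *F13a1* were added. Their summed level ranged from 234 to 754 CPM in Ctrl CL, 382 to 596 in Ctrl IL, 134 to 349 in cKO CL and 289 to 486 in cKO IL, and none of the 7 was at 0 in any library. Between genotypes the sums overlapped on both sides, with 0 of 7 called by limma and medians of -0.53 in CL and -0.05 in IL. All 7 neutrophil markers had a negative log2 fold change in IL in both genotypes, with medians of -2.65 in Ctrl (0 of 7 called, and 6 under the mouse block) and -1.27 in cKO (4 of 7 called, and 5 under the block). The part of microglia, monocytes and neutrophils in the hemisphere differences of the 8 genes was not tested.

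**Figure D1:**
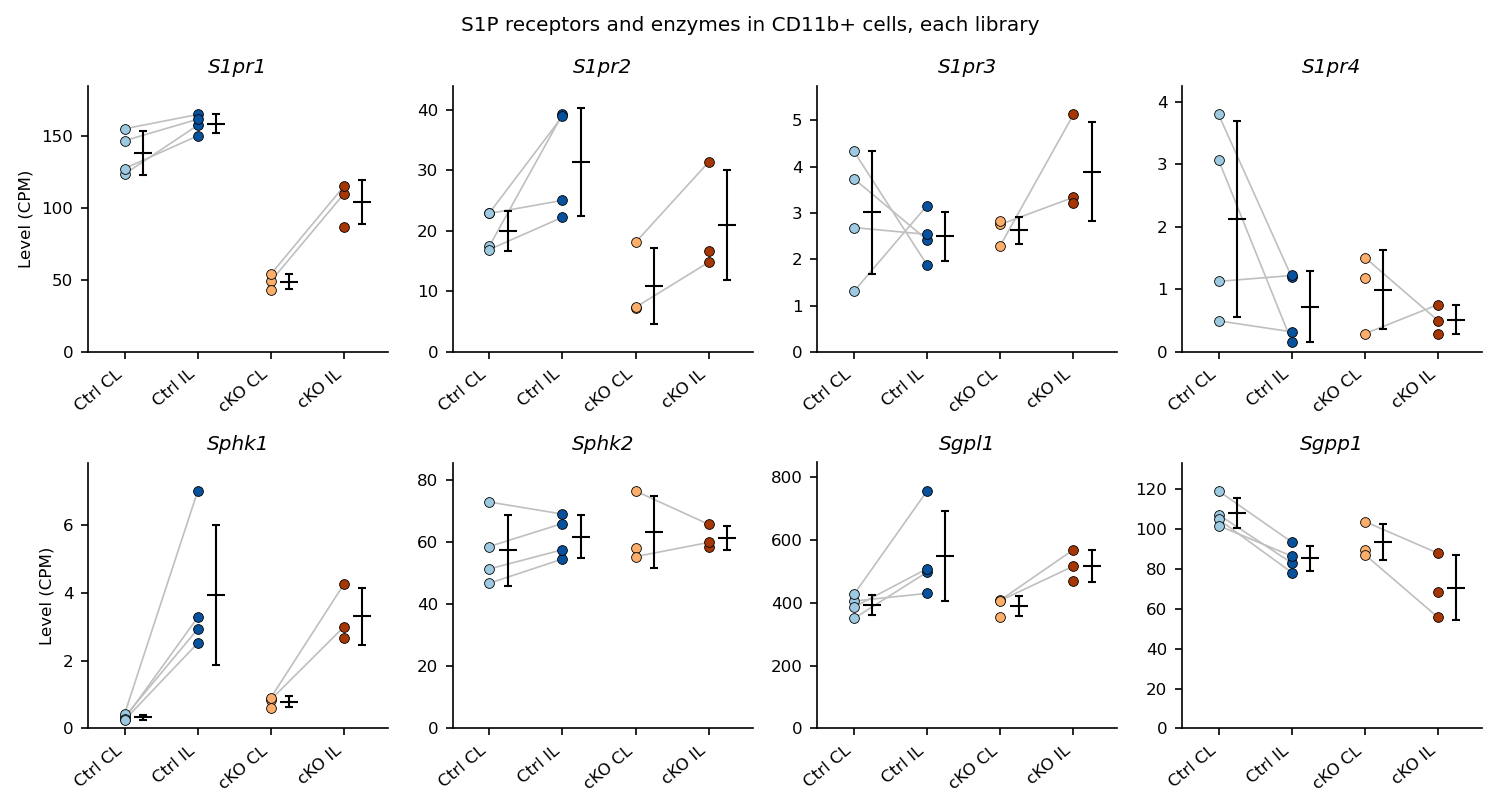
Each panel plots the CPM of 1 gene in each of the 14 libraries, by group, with grey lines joining the hemispheres of a mouse and black bars giving the group mean and SD (4 Ctrl and 3 cKO libraries a hemisphere). The 3 cKO CL libraries of *S1pr1* lie between 43.3 and 54.1 CPM, under all other libraries. *Sphk1* is higher in IL in every mouse with both hemispheres.

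Transcripts of different genes were compared per kilobase of merged exons. In Ctrl CL, the order from the highest was *Sgpl1*, *S1pr1*, *Sgpp1*, *Sphk2*, *S1pr2*, *S1pr4*, *S1pr3* and *Sphk1*. *Sgpl1*, which encodes the lyase that ends S1P, was highest in all 4 groups, at 63.9 ± 5.29 CPM per kb in Ctrl CL (SD, n = 4) and 89.3 ± 23.3 CPM per kb in Ctrl IL (SD, n = 4). *S1pr1* came next in Ctrl CL at 45.4 ± 4.97 CPM per kb (SD, n = 4). In cKO CL its level of 16.1 ± 1.78 CPM per kb (SD, n = 3) overlapped in range with those of *Sgpp1* at 16.5 ± 1.58 and *Sphk2* at 15.2 ± 2.76 (SD, n = 3 each). The kinases stood far apart, with *Sphk2* at 13.8 ± 2.74 and *Sphk1* at 0.0678 ± 0.0162 CPM per kb in Ctrl CL (SD, n = 4 each). Part of the *Sphk2* exons overlaps *Dbp* and *Rpl18*, so its level and rank may hold reads of these genes. At the lower end, *S1pr4* and *S1pr3* overlapped in Ctrl CL, and *Sphk1*, *S1pr3* and *S1pr4* overlapped as neighbours in Ctrl IL. Of the summed level of the 4 receptor genes per kb, *S1pr1* made up 91.7% ± 1.81 in Ctrl CL (SD, n = 4), 91.6% ± 1.64 in Ctrl IL (SD, n = 4), 87.2% ± 4.90 in cKO CL (SD, n = 3) and 90.2% ± 1.97 in cKO IL (SD, n = 3).

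**Figure D2:**
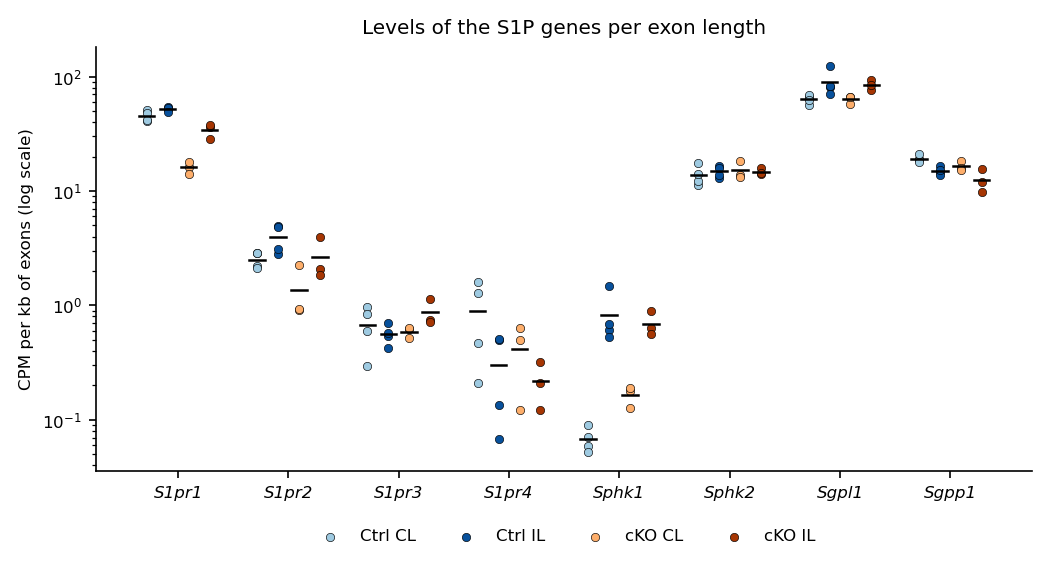
Levels of the 8 genes as CPM per kilobase of merged exons, on a log axis, with a point per library coloured by group and a bar at the group mean. *Sgpl1* is highest in all 4 groups, and *Sphk1* lies at 0.0678 CPM per kb on average in Ctrl CL and at 0.823 in Ctrl IL.

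*S1pr1* (ENSMUSG00000045092) lies on the minus strand of chromosome 3 (chr3:115710433-115715072, GRCm38). It encodes the S1P receptor that signals through Gi proteins and, in lymphocytes, governs exit from lymphoid organs. Its coding sequence lies wholly in the second of its 2 exons. The primer pair that the study used for qPCR of this transcript is shown here. It marks a short stretch that belongs to *S1pr1* alone among annotated transcripts. The study reported *S1pr1* as significantly reduced in cKO IL cells by its own test of the sequencing data, and also measured it with this pair. In the forward primer, capitals mark the bases that fall in exon 2, and the lower case bases lie in exon 1, on the far side of an intron of 1594 bases.
*S1pr1* forward: ttgagcgagGCTGCTGTTTC
The forward primer sits at bases 356 to 375 of the transcript (chr3:115714709-115714717 and chr3:115713104-115713114, GRCm38, minus strand). The reverse primer, all of it in exon 2 and written in lower case throughout, sits at bases 489 to 508 (chr3:115712971-115712990).
*S1pr1* reverse: ggggtggtatttctccaggc
The product spans 153 bases and ends before the coding sequence, which starts at base 536, so it lies in the 5′ UTR.

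In Ctrl CL, *S1pr1* was at 124, 155, 147 and 128 CPM in mice 3541, 3545, 3546 and 3551. In cKO CL it was at 49.3, 43.3 and 54.1 CPM in mice 3592, 788 and 791. The groups did not overlap, as for 6.04% of all genes with all cKO libraries lower, and the highest cKO library was under the lowest Ctrl library by more than the spread within either group. Ctrl averaged 138 ± 15.2 CPM (SD, n = 4), and cKO averaged 48.9 ± 5.43 CPM (SD, n = 3). On the log2 scale the difference was -1.43 (SE 0.15, 95% interval -1.76 to -1.10) with a limma adjusted p of 0.00115. It stayed between -1.52 and -1.37 and below the threshold, with adjusted p values up to 0.0121, under each of the alternative settings tried.

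In the IL hemispheres the gap between the genotypes was smaller. *S1pr1* was at 158, 165, 162 and 150.3 CPM in Ctrl mice 3541, 3545, 3546 and 3551. In cKO mice 3592, 784 and 791 it was at 110.1, 86.9 and 115 CPM. Again each cKO library was lower than every Ctrl library, as for 5.48% of all genes, with means of 159 ± 6.41 CPM in Ctrl (SD, n = 4) and 104 ± 15.1 CPM in cKO (SD, n = 3). This was a log2 fold change of -0.59 (SE 0.14, 95% interval -0.91 to -0.28), and the limma adjusted p of 0.14 missed the threshold (unadjusted p 0.00217). In the joint fit the log2 difference was -0.65 with a limma adjusted p of 0.036, so the call depended on how the libraries were modelled. Without cKO IL mouse 784, which had the lowest value of the IL libraries, the log2 fold change was -0.48 (limma adjusted p 0.61).

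Within mice, *S1pr1* was higher in IL than in CL in 4 of 4 Ctrl mice, by 1.06- to 1.27-fold, and in 2 of 2 cKO mice, by 2.13- and 2.23-fold. The hemisphere difference in cKO was +1.13 on the log2 scale (SE 0.13, limma adjusted p 0.00235). In Ctrl it was +0.29 (SE 0.14, limma adjusted p 0.258), and the joint fit called it at a limma adjusted p of 0.0368. The difference between these hemisphere effects, the genotype by hemisphere interaction, was +0.81 (SE 0.21, 95% interval 0.37 to 1.26). Its unadjusted limma p was 0.00156, but over 18476 genes the adjusted p was 1.0, and in the joint fit it was 0.111. No gene was called for the interaction by limma (0.0% of all genes), with 490 at an unadjusted p under 0.05, and the joint fit called 5 genes (0.0271%), none of them among the 8. The interaction for *S1pr1* was positive under every setting tried, between 0.70 and 0.93.

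Endothelial cells and astrocytes also express *S1pr1*, and their markers were examined beside it. The summed level of 9 endothelial markers ranged from 146 to 371 CPM in Ctrl CL, 90.1 to 205 in cKO CL, 124 to 200.1 in Ctrl IL and 118 to 175 in cKO IL. The sum of 7 astrocyte markers ranged from 211 to 230.0 CPM in Ctrl CL, 182 to 218 in cKO CL, 124 to 176 in Ctrl IL and 135 to 194 in cKO IL. Both sums overlapped between the genotypes on each side of the brain, and none of these markers was at 0 in any library. In CL the endothelial sum averaged 262 ± 123 CPM in Ctrl (SD, n = 4) and 134 ± 62.2 CPM in cKO (SD, n = 3), and all 9 endothelial markers had a negative log2 fold change in cKO, with a median of -0.74 and 0 called by limma. In IL the median over the same markers was 0.00, with 4 of 9 positive and 0 called. Further marker lists were examined in CL. The sum of 8 oligodendrocyte-lineage markers did not overlap, at 221 to 312 CPM in Ctrl CL and 176 to 218 in cKO CL, with 1 of 8 positive, a median log2 fold change of -0.33 and *Mobp* called lower by limma. The sum of 6 B cell markers did not overlap either, at 29.1 to 43.9 CPM in Ctrl CL and 25.1 to 26 in cKO CL, with 0 of the 4 tested called and *Pax5* at 0 in at least 1 Ctrl CL library. Neutrophil markers, summing to 1158 to 4086 CPM in Ctrl CL and 960 to 1470 in cKO CL, had a median of -1.34, with 1 of 7 positive and 0 called. The sum of 9 T and NK cell markers overlapped, at 9.52 to 19.9 CPM in Ctrl CL and 5.62 to 11.5 in cKO CL, with a median of -0.53 and 0 of the 5 tested called. The sum of 7 mural cell markers overlapped, at 57.5 to 170 CPM in Ctrl CL and 69.5 to 97.9 in cKO CL, with 2 of 7 positive and a median of -0.35, and *Abcc9* was called higher, at 0.60 to 1.13 CPM in Ctrl CL and 3.6 to 5.64 in cKO CL. Between hemispheres, 7 of 9 endothelial markers were positive in cKO, with a median of 0.26 and *Vwf* called higher in IL, and 2 of 9 in Ctrl, with a median of -0.52 and 0 called. Of the 7 astrocyte markers, *Gfap* was called higher and *Slc1a3* lower in IL in both genotypes, with medians of 0.07 in Ctrl and 0.18 in cKO. The part of all these cells in the *S1pr1* difference was not tested.

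*S1pr2* (ENSMUSG00000043895, chr9:20962361-20976781) encodes a receptor that couples mainly to G12/13 and restrains cell migration. In Ctrl it was at 17.5, 16.9, 22.9 and 22.9 CPM in the CL and 39.3, 22.3, 38.9 and 25.1 CPM in the IL libraries of mice 3541, 3545, 3546 and 3551. In cKO CL it was at 18.1, 7.22 and 7.39 CPM in mice 3592, 788 and 791, and in cKO IL at 31.4, 16.6 and 14.8 CPM in mice 3592, 784 and 791. Mouse 3592 was the highest cKO animal on both sides, and the ranges of cKO and Ctrl overlapped in each hemisphere. In each of the 6 mice with both hemispheres the IL library was the higher one, by 1.09- to 2.25-fold in Ctrl and by 1.73- and 2.01-fold in cKO. Without the block the hemisphere difference missed the threshold in Ctrl (log2 fold change +0.67, SE 0.22, limma adjusted p 0.0954) and in cKO (+0.99, SE 0.35, limma adjusted p 0.081). With the mouse as a block it was called in both, at +0.67 in Ctrl (limma adjusted p 0.0377) and +0.91 in cKO (limma adjusted p 0.0195).

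Between genotypes, *S1pr2* gave log2 fold changes of -0.88 in CL (SE 0.28, limma adjusted p 0.273) and -0.57 in IL (SE 0.28, limma adjusted p 0.614). A single library decided the first of these. Without cKO CL mouse 3592, the log2 fold change was -1.27 and was called at a limma adjusted p of 0.0244.

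*S1pr3* and *S1pr4* were close to the lower end of detection. *S1pr3* (ENSMUSG00000067586, chr13:51408639-51422797), whose product couples to several G protein classes, ranged from 1.31 to 4.33 CPM in Ctrl CL, 1.88 to 3.16 in Ctrl IL, 2.29 to 2.82 in cKO CL and 3.22 to 5.12 in cKO IL. The cKO IL libraries all lay above those of Ctrl IL, as for 4.85% of all genes. Yet the difference of +0.49 on the log2 scale (SE 0.21) had a limma adjusted p of 0.522. They also all lay above those of cKO CL, as for 18.1% of all genes. That difference was +0.47 on the log2 scale (SE 0.21, limma adjusted p 0.147). *S1pr4* (ENSMUSG00000044199, chr10:81497747-81500132), a receptor known from blood and lymphoid cells, ranged from 0.498 to 3.8 CPM in Ctrl CL, 0.164 to 1.22 in Ctrl IL, 0.291 to 1.51 in cKO CL and 0.293 to 0.758 in cKO IL. These levels rest on 2 to 158 reads a library, and all 4 groups overlapped. Its largest difference was -0.71 on the log2 scale between IL and CL in Ctrl (SE 0.40, limma adjusted p 0.35). Summed neutrophil markers, from cells that carry this receptor, ranged from 1158 to 4086 CPM in Ctrl CL and from 755 to 977 CPM in Ctrl IL, without overlap. The summed level of 9 T and NK cell markers, from lymphoid cells, also did not overlap, at 9.52 to 19.9 CPM in Ctrl CL and 5.09 to 6.34 CPM in Ctrl IL. Of the 5 tested, *Gzma*, *Klrb1c* and *Nkg7* were called lower in IL by limma, and *Cd3d* and *Cd3e* were each at 0 in at least 1 library on both sides, as was *Trac* in IL. The part of these cells in the *S1pr4* difference was not tested.

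**Figure D3:**
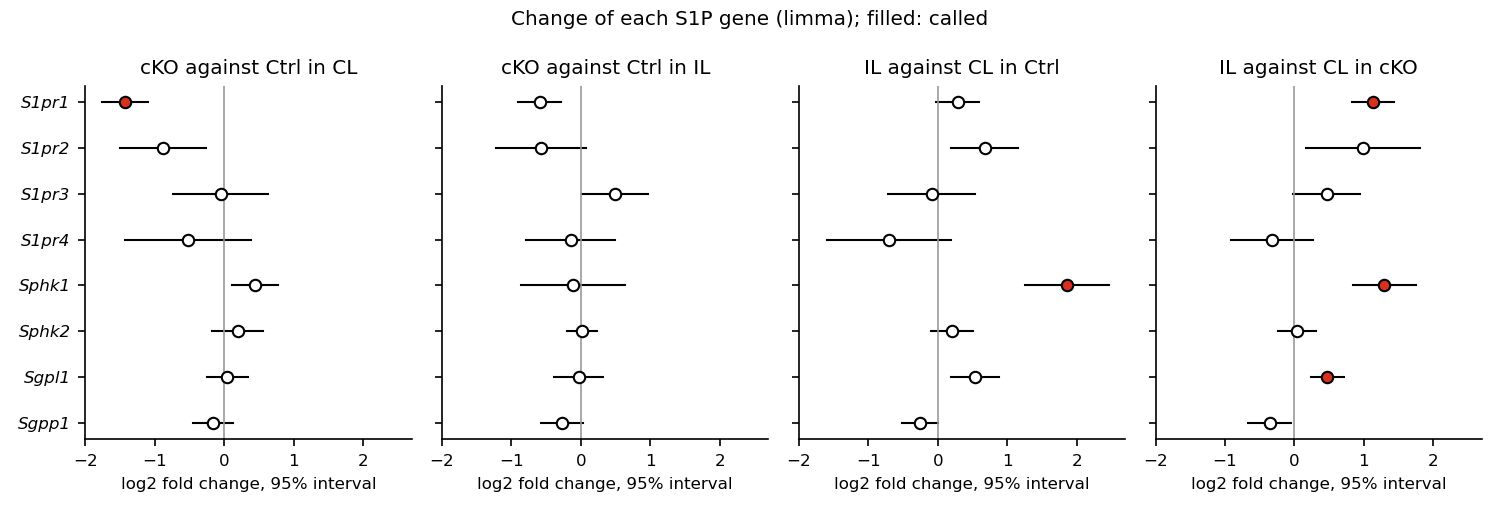
The log2 fold change of each of the 8 genes, on the log2(CPM + 1) scale, with its 95% interval from limma in the 4 comparisons of 2 groups, where filled points mark called genes. The intervals of *S1pr1* lie under 0 for cKO against Ctrl on both sides, with a call in CL alone, and *Sphk1* is called between hemispheres in both genotypes.

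*Sphk1* and *Sphk2* encode the sphingosine kinases, which catalyse the same reaction at different places in the cell, SPHK1 mainly in the cytosol and at the plasma membrane and SPHK2 largely in the nucleus and at internal membranes. Their promoters are shown because *Sphk1* changed between hemispheres and *Sphk2* gave no such call. The sequences are 300-base windows around annotated RefSeq start sites (GRCm38.p6), written 5′ to 3′ on the strand of the gene, with capitals for the motif matches named after them.
*Sphk1*, chr11:116531661-116531960, plus strand: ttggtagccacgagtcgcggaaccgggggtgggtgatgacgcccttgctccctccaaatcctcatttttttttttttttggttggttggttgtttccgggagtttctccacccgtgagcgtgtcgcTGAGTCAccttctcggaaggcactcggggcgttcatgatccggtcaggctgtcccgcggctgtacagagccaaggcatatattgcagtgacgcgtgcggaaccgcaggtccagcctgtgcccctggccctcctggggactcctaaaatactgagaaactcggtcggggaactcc
*Sphk1*, chr11:116532201-116532500, plus strand: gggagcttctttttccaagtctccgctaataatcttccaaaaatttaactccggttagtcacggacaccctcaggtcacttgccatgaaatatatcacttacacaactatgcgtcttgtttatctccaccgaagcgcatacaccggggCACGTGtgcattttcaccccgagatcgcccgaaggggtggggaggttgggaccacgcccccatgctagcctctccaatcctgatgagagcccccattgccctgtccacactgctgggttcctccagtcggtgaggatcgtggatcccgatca
*Sphk2*, chr7:45717953-45718252, minus strand: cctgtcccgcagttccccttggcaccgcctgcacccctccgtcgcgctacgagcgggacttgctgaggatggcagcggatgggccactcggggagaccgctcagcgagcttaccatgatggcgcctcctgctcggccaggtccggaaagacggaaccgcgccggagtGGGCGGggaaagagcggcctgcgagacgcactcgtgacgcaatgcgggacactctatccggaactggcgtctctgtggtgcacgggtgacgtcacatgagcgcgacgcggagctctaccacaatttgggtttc

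The windows were searched on both strands for 4 short motifs. The AP-1 motif TGANTCA, present in 7.81% of 32851 RefSeq promoter windows, was found in 2 of the 5 *Sphk1* windows, which overlap each other, and 124 bases before the start site in the one printed, and in 0 of the 2 *Sphk2* windows. ACGTG, a form of the core of the hypoxia response element, was found in 19.6% of all windows. It occurred in 2 other overlapping *Sphk1* windows, on both strands of the palindrome CACGTG printed above. It also occurred in 1 of the 2 *Sphk2* windows (chr7:45715158-45715457), which is not printed. Other forms of this core were not searched. GGGCGG, the core bound by SP and KLF factors and present in 35.7% of all windows, was found in both *Sphk2* windows and in 0 of the 5 *Sphk1* windows. For NF-kB only 1 form of the motif was searched, with a fixed T just past its middle. That form, present in 18.4% of all windows, was found in 0 of the 5 *Sphk1* and 0 of the 2 *Sphk2* windows. Forms with A at that place were not searched, so these counts do not show that the windows lack an NF-kB motif. These matches describe the letters of the windows and no binding was measured.

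*Sphk1* (ENSMUSG00000061878, chr11:116530925-116536674) was barely detected on the uninjured side of Ctrl mice, at 0.337, 0.426, 0.282 and 0.249 CPM in mice 3541, 3545, 3546 and 3551. In the IL libraries of the same mice it was at 2.93, 7.0, 3.27 and 2.51 CPM. In cKO CL it was at 0.852, 0.609 and 0.910 CPM in mice 3592, 788 and 791, and in cKO IL at 3.00, 2.66 and 4.26 CPM in mice 3592, 784 and 791. In both genotypes every IL library exceeded every CL library, as for 6.26% of all genes in Ctrl and 18.1% in cKO with IL higher. The rise within a mouse was 8.71- to 16.4-fold in 4 of 4 Ctrl mice and 3.52- and 4.68-fold in 2 of 2 cKO mice. The log2 fold change was +1.86 in Ctrl (SE 0.27, limma adjusted p 0.00354) and +1.29 in cKO (SE 0.19, limma adjusted p 0.00454). These log2 values understate the change of so low a gene, since 1 CPM was added to each value before the log. With 0.1 CPM added they were +3.22 in Ctrl and +1.99 in cKO. *Sphk1* stayed called in both genotypes under every setting tried. The interaction of -0.58 (SE 0.37) had an unadjusted limma p of 0.14, with a 95% interval from -1.38 to 0.21, and with 0.1 CPM added it was -1.26 (limma adjusted p 1.0).

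On the uninjured side *Sphk1* was higher in each cKO library than in each Ctrl library, as for 3.98% of all genes. Ctrl CL averaged 0.324 ± 0.0775 CPM (SD, n = 4), against 0.790 ± 0.160 CPM (SD, n = 3) for cKO CL. The log2 fold change of +0.45 (SE 0.15) had a limma adjusted p of 0.298, and with 0.1 CPM added it was +1.11 (limma adjusted p 0.339). In IL the genotypes overlapped and differed by -0.12 on the log2 scale (SE 0.33, limma adjusted p 0.96).

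*Sphk2* (ENSMUSG00000057342, chr7:45709467-45718002) was level across the study. It ranged from 46.7 to 72.8 CPM in Ctrl CL, 54.5 to 68.9 in Ctrl IL, 55.2 to 76.3 in cKO CL and 58.3 to 65.6 in cKO IL. No comparison called it, and the 95% intervals of its log2 fold change ran from -0.10 to 0.50 between hemispheres in Ctrl, from -0.24 to 0.31 between hemispheres in cKO, from -0.17 to 0.56 between genotypes in CL and from -0.20 to 0.23 between genotypes in IL. Its exons share 539 bases with *Dbp* and 373 bases with *Rpl18*, both on the opposite strand, which is 13% and 8.97% of its exon length. The library kit does not mark strand, so reads from these stretches cannot be told apart. *Sphk1* shares 192 bases, 4.02% of its exons, with the antisense gene *Gm29292*. *S1pr3* shares 45 bases, 1.01% of its exons, with *Gm32834* on the opposite strand.

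**Figure D4:**
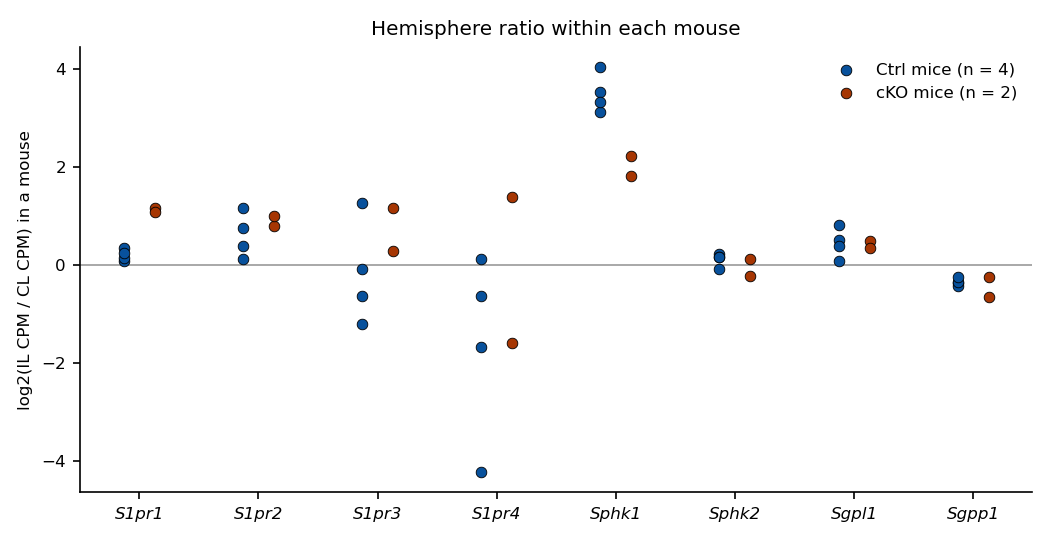
The log2 ratio of IL to CL CPM within each mouse that gave both hemispheres, with 4 Ctrl and 2 cKO mice for each gene. *Sphk1*, *S1pr1*, *S1pr2* and *Sgpl1* lie above 0 and *Sgpp1* under 0 in all 6 mice, and *S1pr1* ratios of the cKO mice are above those of every Ctrl mouse.

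S1P is removed by the enzymes of the remaining pair. *Sgpl1* (ENSMUSG00000020097, chr10:61098642-61147703) encodes S1P lyase of the endoplasmic reticulum, which cleaves S1P for good. In Ctrl CL it was at 350.4, 406, 427 and 387 CPM and in Ctrl IL at 498, 430.4, 757 and 509 CPM in mice 3541, 3545, 3546 and 3551. In cKO CL it was at 408, 355 and 407 CPM in mice 3592, 788 and 791, and in cKO IL at 569.5, 468 and 517 CPM in mice 3592, 784 and 791. Each IL library was above each CL library in both genotypes, as for 6.26% of all genes in Ctrl and 18.1% in cKO, and the highest value, 757 CPM, came from the shallowest library. On the log2 scale IL was above CL by 0.54 in Ctrl (SE 0.16, limma adjusted p 0.0674) and by 0.47 in cKO (SE 0.10, limma adjusted p 0.0147). With the mouse as a block the Ctrl difference was also called (+0.54, limma adjusted p 0.0194). In cKO the call was lost without CL mouse 788 (limma adjusted p 0.056) or IL mouse 791 (limma adjusted p 0.0612). Between genotypes *Sgpl1* gave log2 fold changes of +0.04 in CL (95% interval -0.25 to 0.34) and -0.03 in IL (95% interval -0.39 to 0.32).

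*Sgpp1* (ENSMUSG00000021054, chr12:75714249-75735729) encodes an S1P phosphatase of the endoplasmic reticulum, which returns S1P to sphingosine. In Ctrl CL it was at 107, 105, 119 and 102 CPM and in Ctrl IL at 82.9, 78.1, 93.4 and 86.3 CPM in mice 3541, 3545, 3546 and 3551. In cKO CL it was at 104, 89.4 and 87.0 CPM in mice 3592, 788 and 791, and in cKO IL at 87.7, 68.4 and 55.6 CPM in mice 3592, 784 and 791. It was thus lower in IL in all 6 mice with both hemispheres, with no overlap between the groups in Ctrl, as for 11.4% of all genes with IL lower, and overlap in cKO through the IL library of mouse 3592. The log2 fold changes of -0.26 in Ctrl (SE 0.11, limma adjusted p 0.229) and -0.35 in cKO (SE 0.13, limma adjusted p 0.0938) missed the threshold. The joint fit gave limma adjusted p values of 0.0426 in Ctrl and 0.0213 in cKO, and only the cKO difference, -0.38 on the log2 scale, also reached the fold of 1.2 (-0.25 in Ctrl). The genotypes overlapped in both hemispheres, with log2 fold changes of -0.16 in CL (limma adjusted p 0.736) and -0.27 in IL (limma adjusted p 0.612).

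Beyond these 8 genes, 57 genes of S1P transport, ceramide and sphingomyelin metabolism, S1P receptor regulation and G protein coupling were examined in 7 lists. None of the 51 tested in IL and 52 tested in CL was called between cKO and Ctrl by limma. *Plpp1*, a lipid phosphate phosphatase of the plasma membrane, came closest in IL, at 23.2 ± 2.45 CPM in Ctrl (SD, n = 4) and 36.9 ± 3.98 CPM in cKO (SD, n = 3), a log2 difference of +0.67 (SE 0.13, limma adjusted p 0.0951). *Klf2*, a transcription factor that drives *S1pr1* in lymphocytes and endothelium, stood in the CL hemispheres at 492 ± 63.3 CPM for Ctrl (SD, n = 4) and 791 ± 191 CPM for cKO (SD, n = 3), a log2 difference of +0.72 (SE 0.19, limma adjusted p 0.155). *S1pr5*, the fifth receptor of the family, averaged 1.06 to 1.85 CPM over the groups and was not called in any comparison. The medians of the log2 fold changes over these genes were -0.05 in IL and -0.03 in CL, beside 0.02 and -0.01 over all genes tested.

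Between hemispheres, 5 of 52 such genes were called in Ctrl, with 2 higher and 3 lower in IL, which is 9.62% beside 7.52% of all genes. In cKO 8 of 51 were called, with 4 higher and 4 lower, which is 15.7% beside 23.1% of all genes. *Cd69*, whose product binds the S1P receptor 1 protein and takes it off the cell surface, rose in both genotypes, by +1.44 in Ctrl (SE 0.26, limma adjusted p 0.00941) and +1.87 in cKO (SE 0.39, limma adjusted p 0.013). *Abca1*, a lipid transporter that can export S1P in some cells, also rose in both, by +1.41 in Ctrl (SE 0.34, limma adjusted p 0.0373) and +1.06 in cKO (SE 0.14, limma adjusted p 0.00303). *Klf2* fell in IL by 0.84 on the log2 scale in Ctrl (SE 0.18, limma adjusted p 0.0243) and by 1.26 in cKO (SE 0.21, limma adjusted p 0.0064). *Gna11*, an alpha subunit of the Gq class, fell in IL by 0.61 in Ctrl (SE 0.16, limma adjusted p 0.0459) and by 0.69 in cKO (SE 0.11, limma adjusted p 0.00562). In Ctrl these calls were close to the threshold, apart from that of *Cd69*. They were lost without 1 library for *Abca1* (CL mouse 3541, 3545 or 3551 or IL mouse 3551, limma adjusted p 0.0517 to 0.106), for *Klf2* (CL mouse 3541, 3545 or 3546 or IL mouse 3545 or 3551, 0.0527 to 0.0828) and for *Gna11* (any library but that of IL mouse 3546, 0.0533 to 0.129).

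Without the block, the other calls named here were each made in 1 genotype, and the genotype by hemisphere interaction was not called for them by limma. In Ctrl, *Plpp1* was lower in IL (log2 fold change -0.80, SE 0.21, limma adjusted p 0.0475). In cKO, *Degs1*, the desaturase that completes ceramide synthesis, was higher (+0.41, SE 0.08, limma adjusted p 0.0103). The ceramide synthase gene *Cers1* was lower (-0.80, SE 0.19, limma adjusted p 0.0214), as was the transporter gene *Abcg2* (-0.43, SE 0.12, limma adjusted p 0.0376). With the mouse as a block, 14 of 52 genes were called in Ctrl, which is 26.9% beside 20.5% of all genes, and 5 of 51 in cKO, which is 9.80% beside 14.7%. Among the 6 genes of the list of *S1pr5* and receptor regulators, *Cd69* and *Klf2* were called with and without the block in both genotypes. Under the block in cKO, *Degs1* (limma adjusted p 0.0556), *Cers1* (limma adjusted p 0.0546) and *Abcg2* (limma adjusted p 0.114) lost their calls, while *Abcg2* was called lower in Ctrl (-0.55 on the log2 scale, not called without the block at a limma adjusted p of 0.0743). Leaving out any 1 of several libraries also ended the call of *Abcg2* (CL mouse 788 or 791 or any IL library, limma adjusted p 0.063 to 0.123), of *Cers1* (IL mouse 784 or 791, 0.0729 and 0.0838) and, in Ctrl, of *Plpp1* (CL mouse 3541, 3545 or 3546 or IL mouse 3541, 3545 or 3551, 0.0629 to 0.138).

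**Figure D5:**
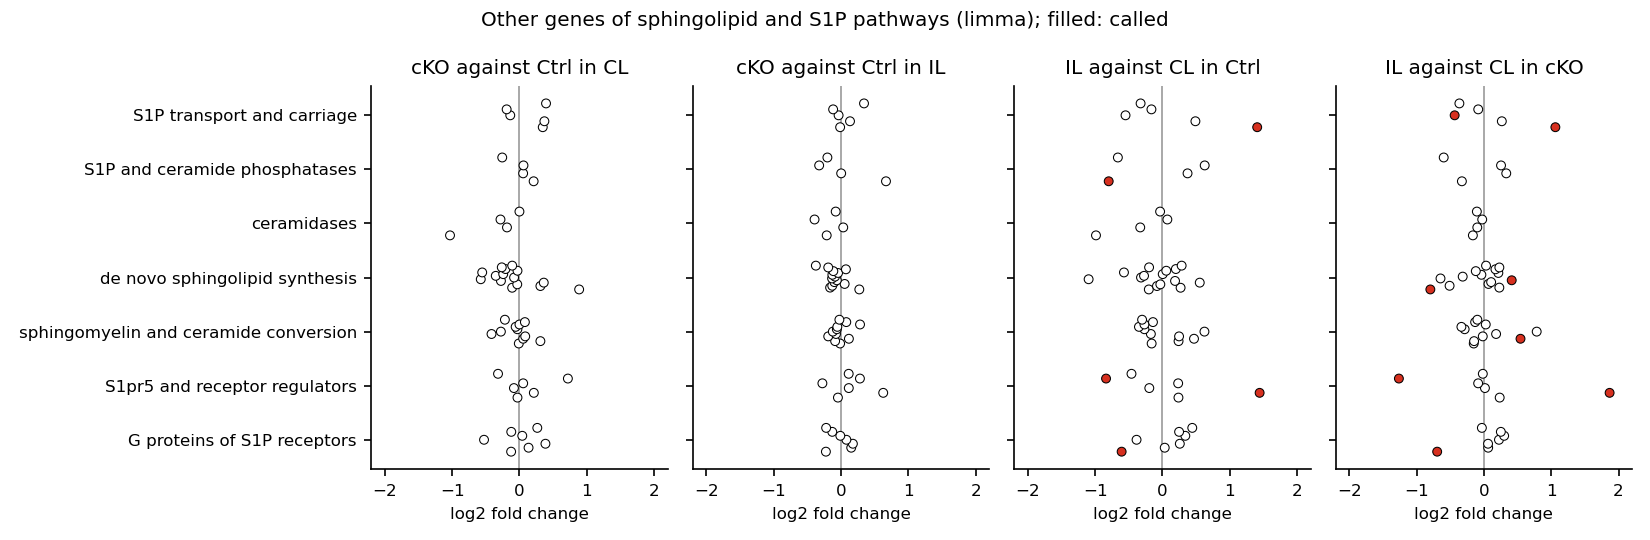
The log2 fold change of each tested gene of the 7 lists, a point per gene, in the 4 comparisons of 2 groups, where filled points mark genes called by limma. No point is filled between genotypes, and the filled points between hemispheres number 5 in Ctrl and 8 in cKO.

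The genes whose levels followed those of the called members most closely were sought over the log2 values of all 14 libraries, among 9756 genes with a mean log2 value above 3. These correlations describe libraries that share mice and group differences. For *S1pr1* they were *Sh3bgrl2* (Pearson r 0.952), *Ifi211* (r 0.92) and *Rbpms* (r 0.915). *Sphk1* was followed most closely by *Vegfa* (r 0.968), which encodes the vascular growth factor VEGF-A, *Sdc1* (r 0.965), the gene for the proteoglycan syndecan-1, and *Ero1l* (r 0.963), an oxidase of protein folding in the endoplasmic reticulum. *Sgpl1* was followed by *Cd93* (r 0.934), *Pdxk* (r 0.931), the kinase that makes pyridoxal phosphate, which is the cofactor of S1P lyase, and *Sntb2* (r 0.93).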

How the data were processed

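CD11b+ cells of 14 libraries were sequenced from Smart Seq v4 libraries. Per the labels, the authors aligned reads with STAR to mm10 and worked in Partek Flow 8.0. The table that the authors call raw counts holds CPM values, with each library summing to 1e+06. Its smallest step gives the depth. Among values worth fewer than 100 reads, 78.5% to 83.5% were whole numbers of steps (tolerance 0.03), and count tests were not used. 2 tables of the authors' own comparisons were not used.

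Symbols, coordinates and exon lengths came from GENCODE M21 (33802 of 33939 IDs matched). Each library was divided by an unweighted trimmed mean of M-values factor, computed for the libraries of each fit. Genes needed the CPM of 10 reads at median depth in a number of libraries equal to the smaller group. limma 3.58.1 (R 4.3.3) with a trend and empirical Bayes tested log2(CPM + 1), two-sided, with Benjamini-Hochberg adjustment over all genes tested. The fits of 2 groups were checked on simulated data without mouse pairing. Changes were added there only to genes of a higher level than *Sphk1*, *S1pr3* and *S1pr4*. The check therefore does not show how changes of these genes are recovered, and it does not cover the fits that use the mouse. Python 3.11.15 drew the figures with matplotlib 3.10.9.

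The mouse numbers paired the hemispheres. Deviations from the group means correlated at 0.184 to 0.604 in the 6 mice with both, and at a median of -0.218 between different mice. The labels do not say whether 784 and 788 are 1 animal, and they were treated as different mice.

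Members and lists were chosen with earlier results of these data known. The text names all members, *S1pr5*, list genes called in at least 1 comparison of 2 groups, the 3 genes most correlated with each called member, called neighbours within 1 Mb and genes with overlapping exons. The deleted gene and 1 called list gene are not reported here. Alternatives were another pseudocount, other scalings, no filter, each library left out in turn and the mouse as a block.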

Additional observations from a re-analysis of the deposited data

Results flagged for a closer look

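*Sphk1* in the Ctrl IL library of mouse 3545 was at 7.0 CPM, and the other Ctrl IL libraries lay between 2.51 and 3.27 CPM. The gap to the nearest library was 0.831 of the range of the group, just past Dixon's critical value for 4 libraries. Of 16 sets of 4 Ctrl libraries examined, this was the only one past that value, and chance alone gives about 1 in 20.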

How the results depend on the processing

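Of 718 repeats of the tests of single genes under other settings, 638 kept their direction and side of the threshold, 49 lost a call, 12 gained one and 19 turned direction. Without the filter on low values, the genes called numbered 66 instead of 112 between genotypes in IL, 78 instead of 150 in CL, 545 instead of 1231 between hemispheres in Ctrl and 2507 instead of 3870 in cKO. With the mouse as a fixed block, 3349 genes were called between hemispheres in Ctrl, 3 of them among the 8, and 2458 in cKO. The joint fit called 188 genes between genotypes in IL, 296 in CL, 4414 between hemispheres in Ctrl, 3277 in cKO and 5 instead of 0 for the interaction, and it differed from the fits of 2 groups in its libraries and in the number of genes tested (18476) as well as in the pairing. Of the 8 genes it called 1 in IL between genotypes, and 4 in Ctrl and 5 in cKO between hemispheres. The cause of these shifts was not tested.

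Leaving out each library in turn gave 44 (without cKO IL mouse 784) to 294 calls (without Ctrl IL mouse 3546) between genotypes in IL. In CL it gave 67 (without cKO mouse 791) to 161, with 1 to 2 of the 8 genes called. Between hemispheres the calls ran from 572 (without Ctrl IL mouse 3541) to 1660 in Ctrl and from 1949 (without cKO IL mouse 791) to 3630 in cKO, and for the interaction from 0 to 1 (without cKO CL mouse 791). Log2 fold changes that turned sign were all uncalled. Between genotypes these ran from -0.33 to 0.0031 for *S1pr4*, -0.29 to 0.17 for *Sphk1* and -0.10 to 0.085 for *Sgpl1* in IL, and from -0.31 to 0.12 for *S1pr3* and -0.0084 to 0.076 for *Sgpl1* in CL. Between hemispheres they ran from -0.35 to 0.089 for *S1pr3* in Ctrl and -0.054 to 0.16 for *Sphk2* in cKO, and the interaction of *Sgpl1* ran from -0.18 to 0.011. With the deposited CPM and no further scaling, *Sphk2* stood at -0.0055 between genotypes in IL and -0.031 between hemispheres in cKO, and *Sgpl1* at -0.0076 between genotypes in CL. The joint fit put *Sphk2* at -0.033 in IL, and the fit without a filter put *Sgpl1* at -0.033 in CL.

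The groups held 3 or 4 libraries, and the levels rest on as few as 2 reads a library for *S1pr4* and 4 for *Sphk1*. The smallest detectable difference at such levels was not tested.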

Other observations

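Genes starting within 1 Mb of each member were compared between cKO and Ctrl. Around *S1pr1*, 0 of 17 tested neighbours were called by limma in either hemisphere. The only called neighbour of any member was *Hist1h2al*, a histone gene near *S1pr3*, at 15.2 ± 2.06 CPM in cKO CL (SD, n = 3) against a mean of 0.109 CPM in Ctrl CL (n = 4), and at 8.47 ± 1.24 CPM in cKO IL (SD, n = 3), while it was listed at 0 in the Ctrl IL libraries. Histone genes have near-identical copies, and its level is uncertain for that reason.

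*S1pr1* lies on chromosome 3, a chromosome singled out after its values were seen. There 26 of 833 tested genes (3.12%) were called between cKO and Ctrl in CL, beside 0.905% of all genes, and 20 of 851 (2.35%) in IL, beside 0.664% of all genes. Of these, 13 were lower and 13 higher in CL, and 15 were lower and 5 higher in IL. The cause was not tested.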
